A study of Mus musculus with 24 samples.

Results

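The 9 genes described here encode the enzymes that carry acetyl-CoA units to lanosterol, the first sterol of cholesterol synthesis. They were chosen by name from the pathway, with earlier results of these data known. They are Hmgcs1, Mvk, Pmvk, Mvd, Idi1, Fdps, Fdft1, Sqle and Lss, 9 of the 55359 gene rows of the count table. The cells were oligodendrocytes, the myelin-forming cells of the brain, taken from the cortex of C57Bl6J pups at postnatal day 5 to 7 with magnetic beads against the surface antigen O4. In all 4 groups the cells differentiated over 3 days, mainly under the thyroid hormone T3, and then spent 3 days with or without ethanol. The 6 wells at 30 mM ethanol and their 6 ethanol-free controls (0 mM) made up experiment 1, and the 6 wells at 10 mM ethanol and their 6 ethanol-free controls made up experiment 2. Control plates had an incubator of their own, and the effects of ethanol and of the incubator cannot be told apart. Nor can dose be told apart from experiment, since each dose belongs to 1 experiment. The labels do not say which pups or cultures each well came from, so p-values measure the spread between wells, which may be technical.

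Cholesterol synthesis starts from acetyl-CoA, which is built up to mevalonate, then to isoprenoid diphosphates, then to the open-chain hydrocarbon squalene, and is closed into the first ring-shaped sterol, lanosterol. The genes of this route are classic targets of the transcription factor SREBP2, which binds sterol regulatory elements together with the CCAAT-box factor NF-Y when sterol in the endoplasmic reticulum is low. Cholesterol is a main lipid of myelin, and the brain makes its own rather than importing it from the blood.

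Promoter sequences are shown for 3 genes that differ in their matches to these elements and that recur in the results below: Hmgcs1 at the head of the route, Mvk with the most CCAAT boxes, and Lss at its end. Each is the stretch of 200 bases directly before the RefSeq start site (build GRCm38.p6, 5′ to 3′ on the gene's strand). Capitals mark the sterol regulatory element core TCACNCCAC and the CCAAT box, which reads ATTGG where it lies on the other strand.

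Hmgcs1, chr13:119690151-119690350, plus strand: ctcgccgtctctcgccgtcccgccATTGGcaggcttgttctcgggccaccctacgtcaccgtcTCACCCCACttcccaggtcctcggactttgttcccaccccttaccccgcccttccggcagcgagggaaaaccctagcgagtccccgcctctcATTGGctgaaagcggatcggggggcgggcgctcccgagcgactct

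Mvk, chr5:114444069-114444268, plus strand: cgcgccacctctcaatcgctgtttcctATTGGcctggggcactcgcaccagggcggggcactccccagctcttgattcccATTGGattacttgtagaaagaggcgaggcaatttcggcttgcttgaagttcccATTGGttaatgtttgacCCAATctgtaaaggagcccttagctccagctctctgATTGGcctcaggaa

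Lss, chr10:76531405-76531604, plus strand: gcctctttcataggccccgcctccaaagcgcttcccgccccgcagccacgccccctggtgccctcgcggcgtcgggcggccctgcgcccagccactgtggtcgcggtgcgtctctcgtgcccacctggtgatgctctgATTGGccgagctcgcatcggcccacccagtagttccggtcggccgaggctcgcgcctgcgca

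The sequence table held start-site windows for 6 of the 9 genes, 7 windows in all, and Fdps, Fdft1 and Sqle are named only. Both strands were searched. The TCACNCCAC core was found in 1 of the 7 windows, that of Hmgcs1, with its first base 137 bases before the start site. It was present in 0.858% of all 32851 windows of the same length. CCAAT boxes were found in 6 of the 7 windows, against 29.3% of all windows, with 5 copies before Mvk, 2 before Hmgcs1 and 1 before Lss. The windows of the next stretch of the pathway, from lanosterol to cholesterol, held CCAAT boxes in 8 of 10 and the TCACNCCAC core in 0. A match is a description of letters and says nothing of binding in these cells.

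Libraries held between 1184609 and 1817028 counts, so that 3 counts, taken as the floor, came to between 1.67 and 2.50 CPM. CPM values are the deposited counts per gene scaled to the library size with TMM factors over the 24 wells, and the floor covers counting error only. All 7 oligodendrocyte markers (Mbp, Mag, Mog, Cnp, Mal, Mobp and Myrf) were detected in every group. Markers of astrocytes, microglia, neurons, mural cells or fibroblasts and endothelial cells were detected too, and the endothelial marker Cldn5 was at 0 in 3 of the 4 groups. Summed levels are given below for the oligodendrocyte, astrocyte, microglial and mural or fibroblast lists only. Replicate 1 at 30 mM stood apart from the other 5 wells of its group: its summed oligodendrocyte markers reached 10027 CPM against at most 6011 CPM in the others, and each of the 9 pathway genes was at its highest in that well within the group. Results at 30 mM are therefore given with and without it. Since that well was the highest for each of the 9 genes, leaving it out had to lower each 30 mM mean. The fits without it show how far the results rest on 1 well and are no further support for a fall.

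Of the 9 genes, 8 were abundant enough to be tested in every comparison. Idi1, which encodes the isomerase that interconverts the isoprenoid building blocks, was not: its counts ran from 0 to 11 per well. Its CPM had a lowest, median and highest value of 0.791, 3.34 and 4.43 in the controls of experiment 1, and 1.48, 3.19 and 6.78 at 30 mM. The values were 0, 0.998 and 2.18 in the controls of experiment 2, and 0, 1.07 and 4.16 at 10 mM. Most of these values lay within a few counts of the floor, and the groups overlapped in each comparison. Idi1 is therefore described by its values only. Where the filter on low counts was loosened it was called higher in the controls of experiment 1 than in those of experiment 2.

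**Figure D1:**
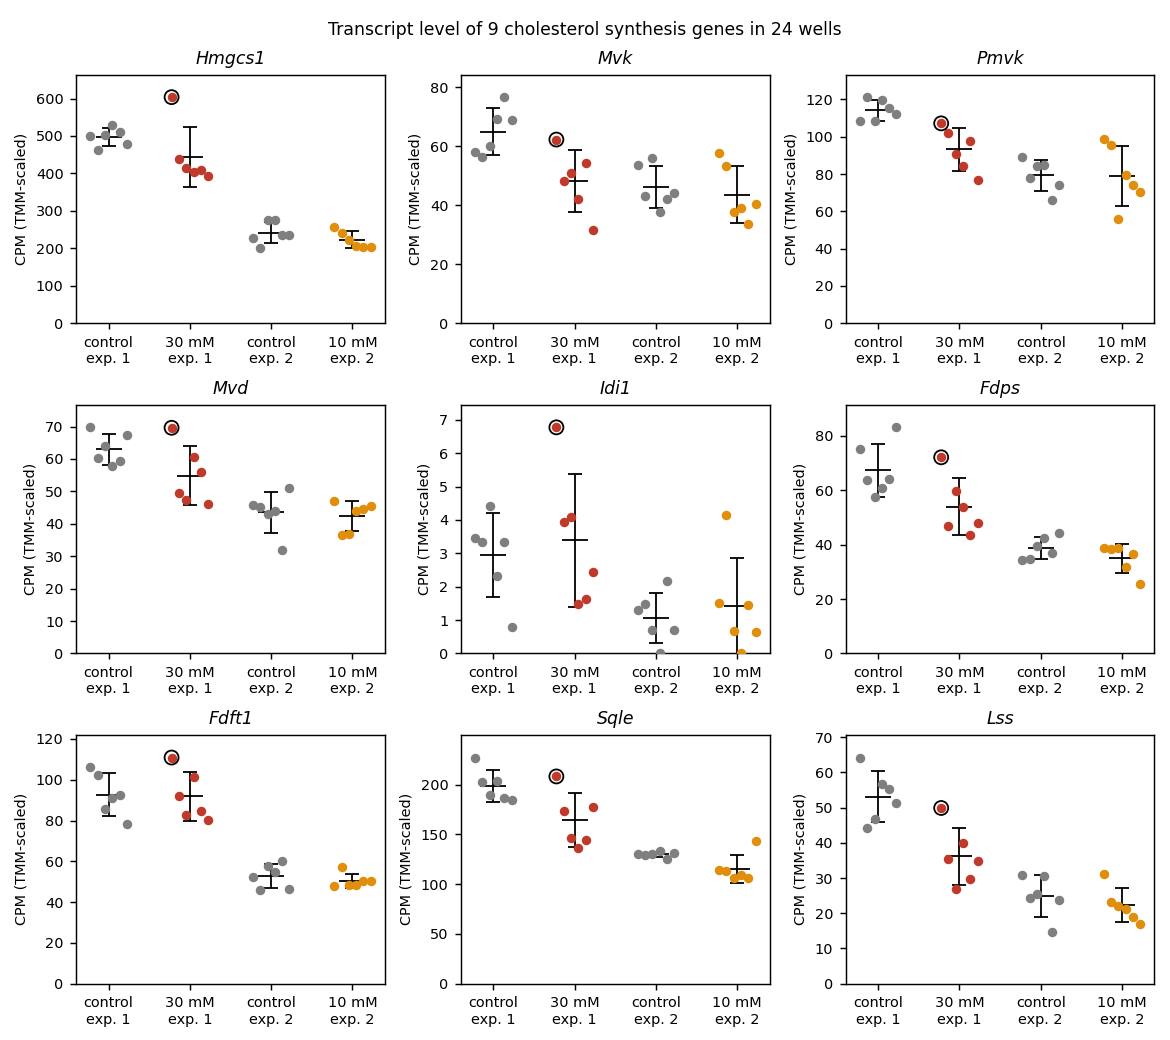
Level of each of the 9 pathway genes in CPM (vertical axes, starting at 0) in each well of the 4 groups (horizontal axis). Points are wells, the circled point is replicate 1 at 30 mM, and bars are the mean with its SD (n = 6 wells, cut off at 0 for Idi1). In every gene except Idi1, whose groups overlap, the controls of experiment 1 lie above those of experiment 2.

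At 30 mM, 4 of the 8 tested genes fell against the controls of experiment 1 and none rose, by edgeR's quasi-likelihood test with Benjamini-Hochberg adjustment over all genes. Among all 13235 genes tested, 6.65% were called lower and 9.67% were called in either direction. The 4 were Mvk, Pmvk, Sqle and Lss, with falls between 16.7% and 30.6%. Of the 8 genes, 7 had negative log2 fold changes, with a median of -0.27 against 0.02 over all genes. At 10 mM, none of the 8 was called, and the controls of the 2 experiments differed in all 8.

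Hmgcs1, the synthase that makes HMG-CoA and so opens the route, had a lowest, median and highest level of 463, 501 and 529 CPM in the controls of experiment 1. At 30 mM the levels were 392, 411 and 604 CPM. Of the 6 wells, 5 lay between 392 and 438 CPM, below every control well, and replicate 1 at 604 CPM lay above every control well. Over all 6 wells the log2 fold change was -0.16 (SE 0.0726) and did not pass (edgeR adjusted p = 0.183). Without replicate 1 it was -0.26 ± 0.0597 (SE; adjusted p = 0.00143 by edgeR), so that 1 well decided the call for Hmgcs1.

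Mvk, mevalonate kinase, adds the first phosphate to mevalonate. Its levels were 56.3, 64.5 and 76.6 CPM (lowest, median, highest) in the controls and 31.6, 49.4 and 62.2 CPM at 30 mM. The only 30 mM well within the range of the controls was replicate 1, and the lowest was replicate 6. Mvk fell by 0.41 ± 0.117 on the log2 scale (SE; adjusted p = 0.0177 by edgeR), and by 0.51 without replicate 1 (edgeR adjusted p = 0.00223).

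Pmvk, phosphomevalonate kinase, adds the next phosphate. It had 108, 114 and 121 CPM in the controls and 77.0, 94.4 and 107 CPM at 30 mM. Pmvk was the only tested gene of the route whose 6 ethanol wells all lay below all 6 control wells, which was so for 3.1% of all genes tested, with replicate 1 just under the lowest control (107 against 108 CPM). The log2 fold change was -0.28 ± 0.0841 (SE; adjusted p = 0.0252 by edgeR), and -0.33 without replicate 1 (edgeR adjusted p = 0.00813).

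Mvd, the decarboxylase that makes isopentenyl diphosphate, had 57.8, 62.1 and 69.7 CPM in the controls and 46.2, 52.6 and 69.6 CPM at 30 mM. The groups overlapped and Mvd did not pass, with a log2 fold change of -0.18 ± 0.105 (SE; adjusted p = 0.306 by edgeR) and of -0.27 without replicate 1 (edgeR adjusted p = 0.101).

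Fdps, which joins the isoprenoid units into farnesyl diphosphate at the point where the branches to ubiquinone, dolichol and prenylated proteins leave the route, had 57.6, 63.8 and 83.1 CPM in the controls and 43.6, 50.9 and 72.1 CPM at 30 mM. In 4 of the 6 ethanol wells it lay below every control. The log2 fold change of -0.29 (SE 0.115) did not pass with all wells (edgeR adjusted p = 0.101). It was -0.40 and passed without replicate 1 (edgeR adjusted p = 0.0132).

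Fdft1, squalene synthase, commits farnesyl diphosphate to sterols. It had 78.3, 91.9 and 106 CPM in the controls and 80.2, 88.4 and 111 CPM at 30 mM, and the 2 ranges covered nearly the same values. The log2 fold change was 0.0019, with a 95% interval from -0.18 to 0.19 (edgeR adjusted p = 0.993), and -0.06 without replicate 1 (edgeR adjusted p = 0.720). The interval excludes falls of the size fitted for Lss or Mvk. In the GENCODE M21 annotation the 3′ end of Fdft1 overlaps by 774 bases with Ctsb, a lysosomal protease gene on the opposite strand, whose mean level over the 24 wells was 1674 CPM without TMM scaling. Ctsb had a log2 fold change of 0.26 at 30 mM (edgeR adjusted p = 0.00470). Whether the counting used strand is not given in the sources used here, so reads of the 2 genes may not be separable, and the share of Ctsb reads in the counts of Fdft1 was not tested. The 3′ ends of other route genes are overlapped too, by genes with few or no counts. They are Fdps by Gm43738 on the same strand (0.032 CPM, unscaled), and, on the opposite strand, Mvd by Gm20388 (0 CPM) and Lss by 4930483K19Rik (0 CPM). How reads in these overlaps were assigned is not known either.

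Sqle, squalene epoxidase, puts in the oxygen from which the ring closure starts and is a rate-limiting step after mevalonate. It had 184, 196 and 227 CPM in the controls and 137, 160 and 208 CPM at 30 mM. Replicate 1 was again the only 30 mM well within the range of the controls. Sqle fell by 0.26 ± 0.0816 on the log2 scale (SE; adjusted p = 0.0312 by edgeR), and by 0.35 without replicate 1 (edgeR adjusted p = 0.00130).

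Lss, lanosterol synthase, closes the sterol rings. Its levels were 44.2, 53.3 and 64.2 CPM in the controls and 27.0, 35.2 and 49.9 CPM at 30 mM. Replicate 1 lay within the range of the controls and the other 5 wells below it. Lss had the largest fall of the 8 genes, with a log2 fold change of -0.53 ± 0.126 (SE; adjusted p = 0.00387 by edgeR), and -0.65 without replicate 1 (edgeR adjusted p = 0.000221). It was also called in all 12 fits that left out 1 well.

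Without replicate 1, 6 of the 8 genes fell, Hmgcs1 and Fdps being added to the 4, and all 8 had negative log2 fold changes. Their median was -0.34 against 0.02 over all genes. The direction of this shift from the fit with all wells was set in advance, as the well left out was the highest for each gene. In that fit 7.42% of 13551 genes were called lower. The 5 remaining ethanol wells lay below all control wells for Hmgcs1, Mvk, Pmvk, Sqle and Lss, and for 4.06% of all genes. Leaving out any 1 of the other wells gave between 1 and 4 genes. The count stayed at 4 without replicate 2 at 30 mM or replicate 3 or 6 of the controls, and was 3 without replicate 5 at 30 mM or replicate 1 or 5 of the controls. It was 2 without replicate 3 or 6 at 30 mM or replicate 2 or 4 of the controls, and 1, Lss, without replicate 4 at 30 mM. Where the count fell, Sqle, Pmvk or Mvk missed the threshold, with edgeR adjusted p-values up to 0.115, and none changed sign.

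Well by well, the contrast between replicate 1 and the rest ran through the route. In replicate 1, 5 of the 8 genes lay above the median of the controls and 3 below it, with a median log2 difference of 0.12. In replicates 2 to 6 between 7 and 8 genes lay below the control median, with median log2 differences from -0.41 to -0.26. At 10 mM, between 6 and 8 genes lay below the median of their own controls in replicates 3 to 6, but 2 in replicate 1 and 4 in replicate 2. The share of all counts that the 9 genes took was 0.107% to 0.118% in the controls of experiment 1. At 30 mM its median was 0.0922%, with a range from 0.0888% to 0.124%.

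**Figure D2:**
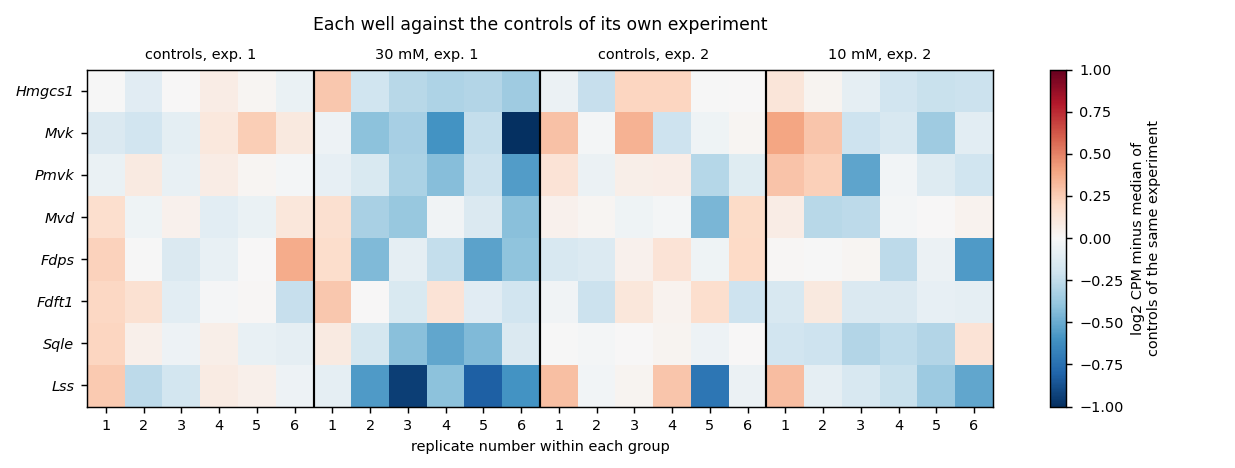
Log2 CPM of each of the 8 tested genes (rows, in pathway order) in each of the 24 wells (columns), minus the median of the control wells of the same experiment, with blue for lower and red for higher. Replicates 2 to 6 at 30 mM are blue in most rows, replicate 1 has 5 of 8 genes above the control median, and the 10 mM wells are paler.

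Markers of cell types moved in the same comparison. At 30 mM 6 of 7 oligodendrocyte markers and 5 of 7 astrocyte markers rose and none fell, and 3 of 6 mural or fibroblast markers fell and none rose. Of all genes tested 9.67% were called in either direction and 6.65% were called lower. Summed oligodendrocyte markers were 4310.5 to 5162 CPM in the controls and 5684 to 10027 CPM at 30 mM, and summed astrocyte markers were 3646 to 4586 CPM and 5099 to 6472 CPM. Summed mural and fibroblast markers were 512 to 730 CPM in the controls and 235 to 344 CPM at 30 mM. None of 4 markers of oligodendrocyte precursors, 3 tested neuronal and 2 tested endothelial markers passed, and 1 of 4 tested microglial markers rose. These counts of called markers were unchanged without replicate 1. The median log2 fold change of the oligodendrocyte markers was then 0.40 against 0.59 with all wells, and 1 of 7 was negative. Their highest sum at 30 mM was then 6011 CPM. In bulk RNA, fewer cells of a type and less RNA per cell cannot be told apart. The part of these markers in the falls of the pathway genes was not tested.

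At 10 mM, 0 of the 8 genes was called by edgeR's quasi-likelihood test, against 0.657% of 13538 genes, and DESeq2 and limma voom also called 0. At an unadjusted p under 0.05 there were 2 of the 8, Hmgcs1 and Sqle, against 10.1% of all genes. All 8 had negative log2 fold changes, between -0.19 and -0.03, with a median of -0.13 against -0.00 over all genes. None passed the threshold once p was adjusted over all genes tested. Of the marker lists, 3 of 7 oligodendrocyte markers and 1 of 6 tested microglial markers rose and 1 of 6 mural or fibroblast markers fell at this dose.

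Sqle came closest to a call at 10 mM. Its controls were tightly grouped at 126, 131 and 133 CPM (lowest, median, highest), and the 10 mM wells had 106, 111 and 143 CPM. In 5 of the 6 ethanol wells Sqle lay between 106 and 114 CPM, below every control, and replicate 6 at 143 CPM lay above every control. The log2 fold change was -0.18 ± 0.0737 (SE; adjusted p = 0.343 by edgeR). Without replicate 6 it was -0.25 and still did not pass (edgeR adjusted p = 0.0917).

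Hmgcs1 had 202, 237 and 275 CPM in the controls of experiment 2 and 203, 215 and 257 CPM at 10 mM, with a log2 fold change of -0.14 ± 0.0675 (SE; adjusted p = 0.487 by edgeR). Lss had 14.5, 24.9 and 31.0 CPM and 16.9, 21.6 and 31.1 CPM, with the largest negative value of the 8 genes at this dose, -0.19, and a 95% interval from -0.50 to 0.12. For both genes the ethanol range lay almost wholly inside that of the controls.

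Mvk had 37.6, 43.6 and 55.8 CPM in the controls and 33.7, 39.7 and 57.7 CPM at 10 mM, and Pmvk 66.2, 80.9 and 89.0 CPM and 55.7, 76.7 and 98.7 CPM. Mvd had 32.0, 44.5 and 51.2 CPM and 36.6, 44.3 and 47.1 CPM. Fdps had 34.2, 38.3 and 44.2 CPM and 25.4, 37.4 and 38.9 CPM, and Fdft1 45.9, 53.6 and 60.3 CPM and 47.8, 49.3 and 57.4 CPM. All 5 pairs of groups overlapped widely, and their log2 fold changes were -0.12 for Mvk, -0.03 for Pmvk, -0.05 for Mvd, -0.17 for Fdps and -0.09 for Fdft1.

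**Figure D3:**
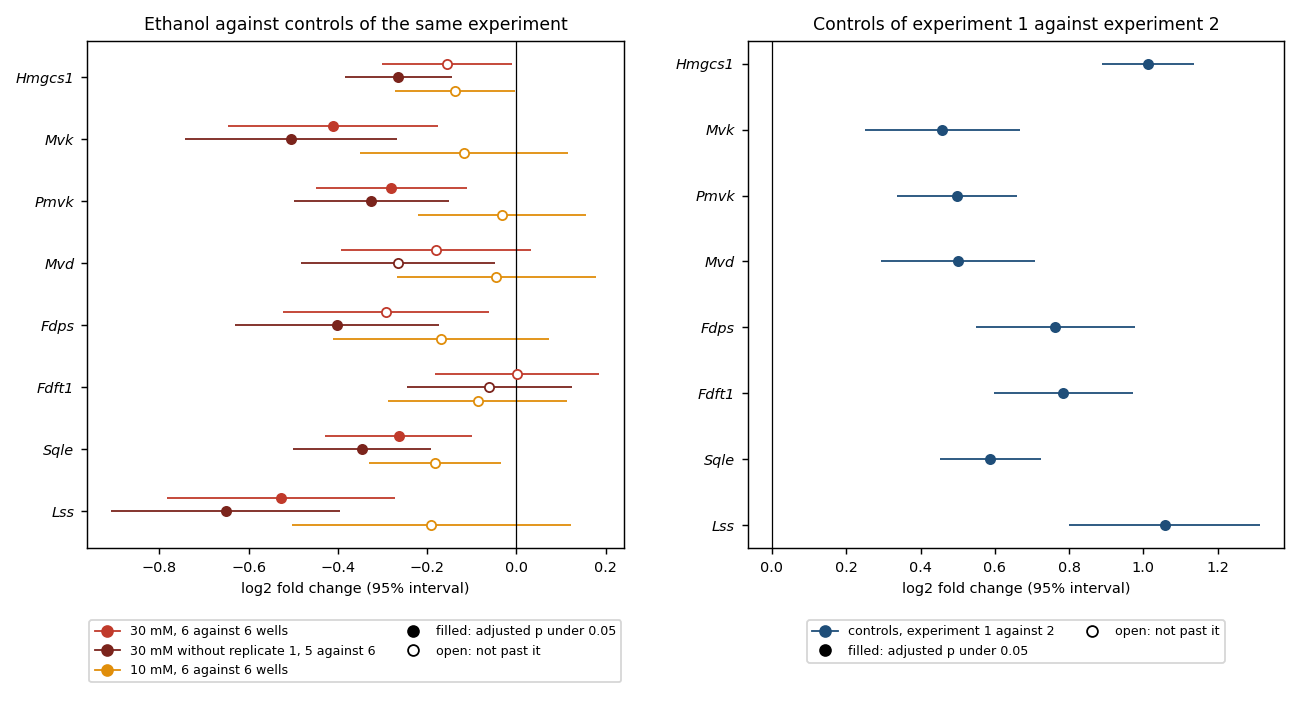
Log2 fold change of the 8 tested genes (in pathway order) at 30 mM with all wells, at 30 mM without replicate 1 and at 10 mM, each against the controls of its own experiment, with bars for the 95% interval of edgeR's fit and filled points for an adjusted p under 0.05. The right panel gives the controls of experiment 1 against those of experiment 2, where all 8 genes are higher. Lss has the lowest value at 30 mM (-0.53), Fdft1 lies at 0.0019, and the 10 mM values lie between -0.19 and -0.03.

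The difference between the ethanol changes of the 2 experiments was tested as an interaction over the 24 wells. None of the 8 genes passed edgeR's quasi-likelihood test, against 3.28% of 14655 genes, none had an unadjusted p under 0.05, against 17.2% of all genes, and DESeq2 and limma voom called 0. So 30 mM with its experiment was not shown to act differently from 10 mM with its own on any of these genes. The widest differences (30 mM change minus 10 mM change, log2) were for Lss at -0.35 with a 95% interval from -0.77 to 0.07, Mvk at -0.31 with an interval from -0.65 to 0.04, and Pmvk at -0.26 with an interval from -0.53 to 0.01. These intervals leave room for larger falls at 30 mM and also for none. For Hmgcs1 the difference was -0.03, with an interval from -0.24 to 0.19. Without replicate 1, none was called, against 5.1% of all genes, and 3 of the 8, Mvk, Pmvk and Lss, had an unadjusted p under 0.05, against 20.6% of all genes.

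For each of the 8 genes the fitted difference between the control groups was larger than the fitted ethanol change at either dose with all wells. All 8 tested genes were higher in the controls of experiment 1, where 21.3% of 13479 genes were called higher and 43.6% were called in either direction. For all 8, every control well of experiment 1 lay above every control well of experiment 2, which was so for 10.9% of all genes. The median log2 difference was 0.68 against -0.01 over all genes.

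The differences were widest at the ends of the route. Lss was 2.08-fold higher in experiment 1 (log2 difference 1.06 ± 0.129, SE; adjusted p = 7.16e-11 by edgeR), and Hmgcs1 2.02-fold higher (log2 difference 1.01 ± 0.0617, SE; adjusted p = 1.58e-25 by edgeR). Fdft1 was 1.72-fold and Fdps 1.70-fold higher, and Sqle was 50.3% higher. Mvd and Pmvk were both 1.41-fold higher, and Mvk, the least different, was 1.37-fold higher (edgeR adjusted p = 0.000206). Ctsb, which overlaps Fdft1, went the other way, with a log2 difference of -1.11.

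With all wells the order of the group means was the same for each of the 8 genes, from the controls of experiment 1 through 30 mM and the controls of experiment 2 to 10 mM. The upper pair of neighbours differed by test in 4 genes and the lower pair in none. The middle pair, 30 mM against the controls of experiment 2, was not tested, because experiment and dose both differ there. Without replicate 1 the order held for 7 of the 8, and for Mvk it turned, with a mean of 45.4 CPM at 30 mM against 46.0 CPM in the controls of experiment 2.

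Between the 2 control groups 6 of 6 tested microglial markers and 3 of 4 precursor markers were lower in experiment 1, and 4 of 7 astrocyte markers were higher and 2 lower. Of all genes tested there, 43.6% were called in either direction and 21.3% were called higher. Summed microglial markers were 115 to 198 CPM in the controls of experiment 1 and 1215 to 1537 CPM in those of experiment 2. Of the oligodendrocyte markers 1 of 7 was lower in experiment 1, and their sums overlapped, at 4310.5 to 5162 CPM and 4024 to 5260.3 CPM. Of the mural and fibroblast markers 1 of 6 was higher and 2 lower, with sums of 512 to 730 CPM and 292 to 373 CPM. The gap between these sums came from Acta2, at 292 to 422 CPM in the controls of experiment 1 and 18.7 to 30.4 CPM in those of experiment 2. Of the remaining lists, 1 of 3 neuronal and 1 of 2 endothelial markers tested were lower in experiment 1. Experiment is also given as batch in the labels, and its part, like that of the markers, was not tested.

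The enzymes and controls around the route were described by 4 lists. Of all genes tested, 6.65% were called lower at 30 mM, 7.42% without replicate 1, and 0.657% in either direction at 10 mM. Of the 9 genes that take lanosterol on to cholesterol, 1 fell at 30 mM and none rose, with a median log2 fold change of -0.14. It was Nsdhl, a dehydrogenase that helps to remove the methyl groups at carbon 4, with a log2 fold change of -0.50 (edgeR adjusted p = 0.0103). Its levels were 32.9, 40.0 and 48.3 CPM in the controls and 23.0, 27.3 and 35.7 CPM at 30 mM (lowest, median, highest), and only replicate 1 lay within the range of the controls. Without replicate 1, Cyp51, the lanosterol demethylase, fell as well, by 0.33 on the log2 scale (edgeR adjusted p = 0.00405), making 2 of 9. Replicate 1 was the highest 30 mM well for Cyp51 (232 CPM, the next 185 CPM), so leaving it out had to lower that mean.

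Among 5 genes that supply acetyl-CoA and its first condensation, 1 fell and none rose. Acly, ATP citrate lyase, which makes cytosolic acetyl-CoA from citrate, had a log2 fold change of -0.31 at 30 mM (edgeR adjusted p = 0.0204). The call was lost when replicate 3, 4, 5 or 6 at 30 mM was left out (edgeR adjusted p up to 0.0768). Acat2, the cytosolic thiolase that feeds Hmgcs1, passed without replicate 1, at -0.29 (edgeR adjusted p = 0.0170). For Acat2, too, replicate 1 was the highest 30 mM well (144 CPM, the next 133 CPM), so leaving it out had to lower the mean.

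Of 8 genes that control SREBP or report on it, 2 fell at 30 mM and none rose. Insig1, a sterol-induced brake that holds SREBP in the endoplasmic reticulum and is itself an SREBP target, had 110, 121 and 123 CPM in the controls and 72.1, 89.5 and 102 CPM at 30 mM. The groups did not overlap, replicate 1 included, and the log2 fold change was -0.42 (edgeR adjusted p = 0.000685). Stard4, a sterol carrier protein and SREBP target, had 55.3, 62.3 and 69.3 CPM and 35.2, 41.1 and 55.4 CPM, with a log2 fold change of -0.54 (edgeR adjusted p = 0.000906).

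Insig1 was also the only gene of the 4 lists that was called at 10 mM. It had 61.8, 82.7 and 87.1 CPM in the controls of experiment 2 and 47.6, 60.2 and 75.9 CPM at 10 mM, where 3 wells lay below every control, and its log2 fold change was -0.38 (edgeR adjusted p = 0.0383). That call was narrow. It held in 5 of 12 fits that left out 1 well, being lost without replicate 4, 5 or 6 at 10 mM or replicate 1, 2, 4 or 6 of the controls (edgeR adjusted p up to 0.152), and in 3 of 8 alternative fits with all wells, whose adjusted p ran from 0.029 to 0.201 (DESeq2). At 30 mM the calls of Insig1, Stard4 and Nsdhl held in all 12. None of the genes of the 4 lists differed between the experiments in its ethanol change with all wells. Without replicate 1, Ebp, a sterol isomerase of the later steps, and Stard4 did, with log2 differences of -0.55 (edgeR adjusted p = 0.0274) and -0.53 (edgeR adjusted p = 0.0476). In that fit 5.1% of all genes were called. Replicate 1 was the highest 30 mM well for both, at 58.5 CPM for Ebp and 55.4 CPM for Stard4, the next being at 46.1 CPM for each. Leaving it out had to lower both 30 mM means, so these 2 calls are no further support for a difference.

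Of the 9 tested genes on the isoprenoid branches to ubiquinone, dolichol and prenylated proteins, none was called at either dose, and Pdss1 was too low to be tested. Between the controls, 7 of 9 later pathway genes, 4 of 5 supply genes, 5 of 8 SREBP genes and 3 of 9 branch genes were higher in experiment 1, and none was lower. Of all genes tested there, 21.3% were called higher.

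**Figure D4:**
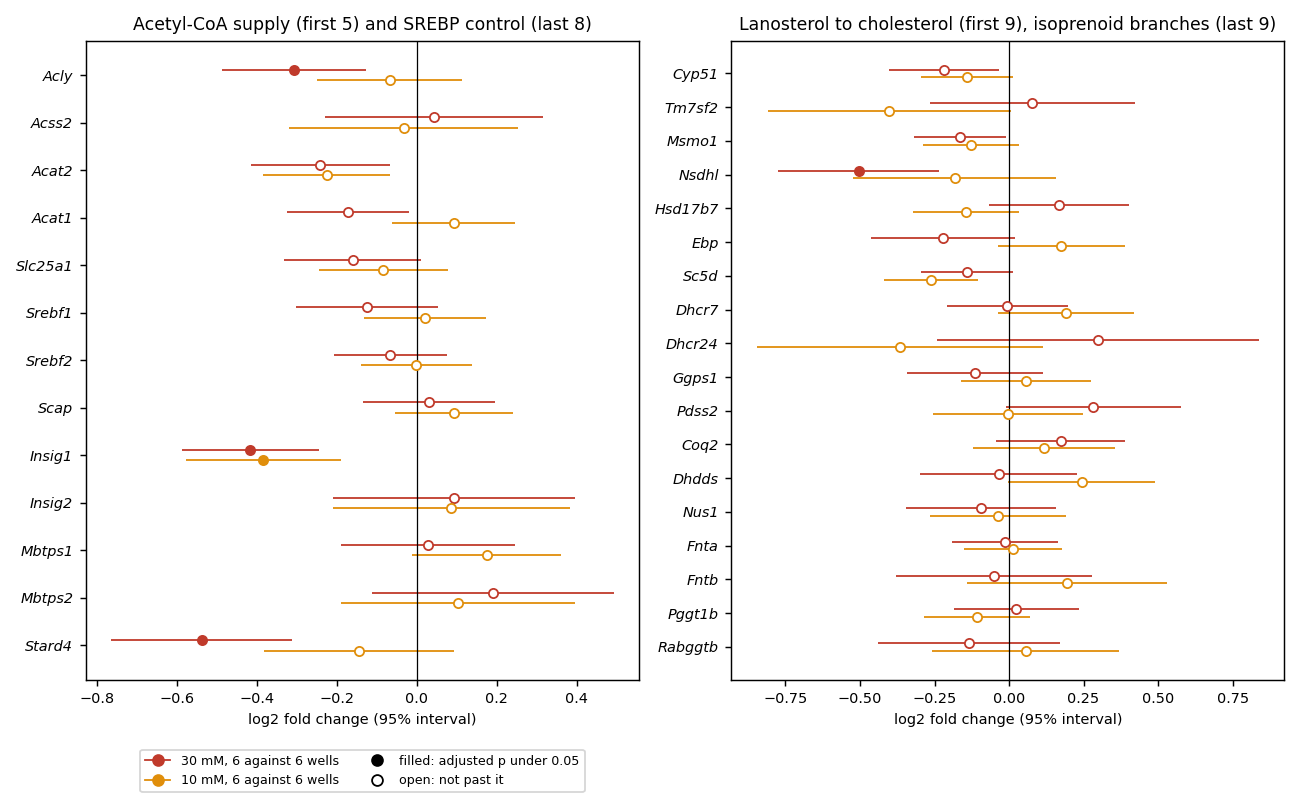
Log2 fold change of the tested genes of the 4 lists around the route at 30 mM and at 10 mM, each against the controls of its own experiment, with bars for the 95% interval of edgeR's fit and filled points for an adjusted p under 0.05. At 30 mM 1 of 9 later genes, 1 of 5 supply genes, 2 of 8 SREBP genes and 0 of 9 branch genes are filled, and at 10 mM only Insig1.

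Within groups the genes of the route varied together less once replicate 1 at 30 mM was left out. Log2 CPM was centred on each group's mean, and all 28 pairs of the 8 tested genes had a positive Pearson r over the 24 wells, with a median of 0.27. Without replicate 1 at 30 mM the median was 0.07 and 22 of the 28 were positive. The genes of a pair were measured in the same libraries and share their depth, and the values are given with no test. The 10 genes whose within-group levels were most like the mean of the 8, among 13341 genes, were Rpl13a (r = 0.815), Dcp2 (r = 0.810), Rab1b, Ociad1, Hnrnpk, Ddr1, Pcyt2, Aes, Abca2 and Syt11 (r = 0.759). None belongs to the 4 lists. Over the 23 other wells 2 of the 10, Rpl13a and Dcp2, were among the 10 most alike, so the ranking depended on replicate 1. Cyp51, the most alike of the listed genes over 24 wells, had r = 0.738 there and 0.561 over 23.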

How the data were processed

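RNA from 24 wells was measured by 3′ TagSeq, which reads only the end of each transcript, whatever its length. The authors deposited whole-number read counts per gene. Per the submitters' processing notes, cutadapt 1.18, STAR and GRCm39 were used. The counter, annotation, use of strand and removal of duplicates are not given in the sources used here. Symbols were matched by Ensembl identifier for 94.1% of 55359 rows.

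The counts were tested with edgeR 4.0.16 in R 4.3.3 (quasi-likelihood test, TMM, filterByExpr with a minimum of 10 counts, Benjamini-Hochberg over all genes, threshold 0.05), each dose with the controls of its own experiment, the difference of the ethanol changes as an interaction over 24 wells, and the control groups with each other. SE and 95% intervals are those of edgeR's log2 fold change. Every pair of wells in a group differed by more than sampling noise (60 pairs, chi-square per degree of freedom 1.08 to 3.14). Same-numbered wells of 2 groups did not deviate together (Pearson r between -0.168 and 0.233), so the replicate numbers did not pair them. Alternatives covered normalization, filter, DESeq2 1.42.0, limma voom (limma 3.58.1), a joint fit, the replicate block, thresholds and leaving out each well. The fits were also run on simulated counts, with changes larger than the ethanol changes of the route and no well standing apart. That run does not bear on smaller changes.

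The genes named were all 9 of the route, the genes of 4 surrounding lists with an adjusted p under 0.05 at either dose or in the interaction, and the 10 genes most like the route within groups (mean log2 CPM of at least 3, prior count 2). Ctsb was added after its values were seen, and the genes that overlap the 3′ ends of Fdps, Mvd and Lss are named for their position. The genes and lists were chosen with earlier results of these data known. A marker of the oligodendrocyte list is not reported here and was left out of its counts and sums.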

Additional observations from a re-analysis of the deposited data

Results flagged for a closer look

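In each group of 6 wells, a well was taken as standing apart when its gap to the nearest other well, divided by the range of the group, exceeded Dixon's critical value at the 95% level. Over the 9 genes and 4 groups this made 36 series, of which chance flags about 1.8, and 4 were flagged. Hmgcs1 was at 604 CPM in replicate 1 at 30 mM, where the other 5 wells lay between 392 and 438 CPM. Sqle was at 143 CPM in replicate 6 at 10 mM, where the others lay between 106 and 114 CPM. Fdft1 was at 57.4 CPM and Idi1 at 4.16 CPM in replicate 2 at 10 mM, the latter from a few counts. For Hmgcs1 and Sqle the well stood on the other side of the controls from the rest of its group.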

How the results depend on the processing

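At 30 mM, the number of the 8 tested genes called was 4 with all wells, 2 with DESeq2 and 1 at an adjusted p under 0.01, and it ran from 1 to 6 as each well was left out. Lss and Mvk were called in all 8 alternative fits, Pmvk in 7 and Sqle in 6. In the 8 fits the adjusted p of Pmvk reached 0.0529 and that of Sqle 0.0649. All genes called numbered 641 at an adjusted p under 0.01 and 953 to 1563 with 1 well left out. At 10 mM they numbered 59 with a filter of at least 1 CPM in 6 wells, 32 with DESeq2, 21 with the joint fit, 150 and 28 at adjusted p under 0.1 and 0.01, and 37 to 95 with 1 well left out, and 0 to 0 of the 8 genes were called. For the interaction there were 854 and 173 at those thresholds and 329 to 759 with 1 well left out, with 0 to 0 of the 8 genes. Between the controls, 8 to 8 of the genes and 5367 to 6250 of all genes were called with 1 well left out.

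The sign of Fdft1 at 30 mM turned to -0.028 without a filter, -0.035 with the 1 CPM filter and -0.0058 with the replicate block, and ran from -0.061 to 0.041 with 1 well left out. That of Hmgcs1 in the interaction turned to 0.044 with upper quartile factors, and ran from -0.16 to 0.012 with 1 well left out, as did Fdft1 from -0.0068 to 0.11. At 10 mM Pmvk ran from -0.10 to 0.050 and Mvd from -0.11 to 0.013. None of these was called, and the cause was not tested. With the replicate block, 4 of the 8 genes were called at 30 mM, 0 at 10 mM, 0 in the interaction and 8 between the controls, with 1208, 68, 461 and 5860 genes in all, so the block changed none of these counts of the 8. Idi1 entered only where low counts were kept, and between the controls was then called. Why its counts were low was not tested. The alternatives for Nsdhl, Acly, Insig1 and Stard4 were chosen after seeing the data.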
